A study of Rattus norvegicus with 89 samples.

Results

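The cell cycle and DNA replication genes described here are a list of 47 rat genes that run the G1/S transition, copy DNA or build and take apart the mitotic spindle. They were found by gene symbol among the probe sets of kidney expression arrays, whatever their values. In all, 45 of the 47 had a probe set (Rrm2 and Tpx2 had none), and these 45 stand among 14217 named genes on the arrays. Kidney RNA of 89 Sprague-Dawley rats, 44 males and 45 females aged 7 to 8 weeks when the study began, was hybridised to 1-colour Affymetrix arrays, 1 array per rat. The rats were acclimated for 6 days and then received a compound daily for 1 day or for 5 days. Gentamicin, tobramycin, cisplatin, cadmium and valproic acid were given to 6 rats each at each time, and doxorubicin to 6 rats for 1 day and 5 rats for 5 days. The control rats were 7 given saline for 1 day, 5 given saline for 5 days and 6 left untreated (naive). Most groups held 3 males and 3 females; doxorubicin at 5 days held 2 males and 3 females, saline at 1 day 3 males and 4 females, and saline at 5 days 3 males and 2 females. The design names 5 known nephrotoxicants and 2 controls among 7 compounds without saying which is which, and no dose is stated in the labels. Apical parts of the right and left kidney of a rat were homogenised together, so each value is an average over all cells of that tissue.

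In the adult kidney most tubular cells rest outside the cycle, and surviving tubular cells re-enter it after injury. Growth signals raise cyclin D, which with its kinase frees E2F factors to switch on replication genes; the Mcm proteins then load onto origins as the helicase that opens DNA. The mitotic genes follow later in the cycle, when Cdk1 with cyclins A and B, the Aurora and Polo kinases and the anaphase-promoting complex carry the cell through division. Transcripts of the mitotic genes are low in resting cells, and in bulk tissue fewer cycling cells and less RNA per cycling cell cannot be told apart.

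The promoters of 4 members that vary most among the groups are shown first, because genes of this kind share short promoter elements. Elements searched on both strands were the cell cycle genes homology region (CHR, TTTGAA), which MuvB complexes bind, the CCAAT box (CCAAT), which NF-Y binds, and E2F elements (TTTGGCGC, TTTCCCGC or TTTCGCGC). Each sequence runs 5′ to 3′ on the gene's strand, 250 bases before to 50 bases after the annotated start, from RefSeq on build GRCr8. For Cdk1 this start lies inside the gene span, which begins at 19265252. The whole Mki67 window lies inside its gene span, which on the minus strand begins at 199952847. Distances below are from the start used for the window. Capitals mark the matches, in either orientation. Top2a is shown from chr10:84473044-84473343 (minus strand), Cdk1 from chr20:19265043-19265342 (plus strand), Mki67 from chr1:199952544-199952843 (minus strand) and Cdca3 from chr4:159320953-159321252 (plus strand).
Top2a: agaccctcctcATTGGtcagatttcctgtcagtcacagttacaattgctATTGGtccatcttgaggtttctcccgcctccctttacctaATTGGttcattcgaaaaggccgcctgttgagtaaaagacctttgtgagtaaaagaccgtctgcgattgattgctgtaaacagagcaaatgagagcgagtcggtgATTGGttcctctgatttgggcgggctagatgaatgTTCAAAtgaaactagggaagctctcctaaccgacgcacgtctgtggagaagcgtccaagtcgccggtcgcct
Cdk1: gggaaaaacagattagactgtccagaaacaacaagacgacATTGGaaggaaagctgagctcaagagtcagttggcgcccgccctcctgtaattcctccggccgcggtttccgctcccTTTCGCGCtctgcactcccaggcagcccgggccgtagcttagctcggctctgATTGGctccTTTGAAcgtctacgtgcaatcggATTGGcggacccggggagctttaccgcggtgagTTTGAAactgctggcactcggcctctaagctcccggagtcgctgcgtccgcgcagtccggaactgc
Mki67: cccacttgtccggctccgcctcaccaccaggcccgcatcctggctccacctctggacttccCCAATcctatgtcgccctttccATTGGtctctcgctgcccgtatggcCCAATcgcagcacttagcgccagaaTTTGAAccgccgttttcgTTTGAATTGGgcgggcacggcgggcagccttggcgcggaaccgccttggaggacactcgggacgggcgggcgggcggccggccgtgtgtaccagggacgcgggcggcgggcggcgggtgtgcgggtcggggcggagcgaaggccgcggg
Cdca3: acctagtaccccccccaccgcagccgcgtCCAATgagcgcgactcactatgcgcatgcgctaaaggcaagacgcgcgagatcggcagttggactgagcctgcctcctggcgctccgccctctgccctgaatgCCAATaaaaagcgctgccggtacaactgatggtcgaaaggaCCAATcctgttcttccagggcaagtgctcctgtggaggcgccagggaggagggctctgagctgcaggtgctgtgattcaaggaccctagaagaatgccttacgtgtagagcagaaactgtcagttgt
Top2a held a CHR match 22 bases before its start and 4 CCAAT matches. Cdk1 held CHR matches 72 and 16 bases before its start, 3 CCAAT matches and the E2F letters TTTCGCGC further upstream. Mki67 held CHR matches at 117 and 99 bases and 4 CCAAT matches, the last of which overlaps the nearer CHR match. Cdca3 held 3 CCAAT matches and no TTTGAA in this window.

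Promoter sequences of this kind were at hand for 37 of the 45 genes and for 11733 genes in all. TTTGAA stood in 15 of the 37 members (40.5%), against 12.3% of all promoters of the same length. CCAAT stood in 26 of 37 members (70.3%), against 37.3% of all promoters, and an E2F element in 8 of 37 (21.6%), against 3.04%. Among the 14 members with a promoter that varied among the 15 groups (below), 10 held TTTGAA and 2 held an E2F element. Among the other 23 members, 5 held TTTGAA and 6 held an E2F element, and those 6 were Mcm2, Mcm3, Mcm6, Mcm7, Gmnn and Tyms. These shares describe letters in a window and were not tested.

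Before the results, some facts on the arrays. The 2% trimmed mean of the deposited signal ran between 91.5 and 352 over the 89 arrays, so every array was scaled to 176, and all levels below are scaled signals. A log2 difference is a difference of log2(signal + 16), which understates changes of dim genes. The treatment text of 5 arrays (1F104, 1M2, 1M4, 2F114 and 5F137) is absent or differs from the title, and their titles were followed. All 12 kidney tubule and podocyte markers measured, such as Lrp2 and Umod, lay above the low-value limit (a signal of 32.1) on all 89 arrays. Replicates are separate rats.

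The list is dim in this tissue: 11 of the 45 genes lay above 32.1 on all 89 arrays (Ccnd1, Cdk4, Cdk2, Mcm2, Mcm4, Mcm7, Rrm1, Tk1, Pcna, Kif11 and Racgap1), and 41 lay above it on at least 5 arrays. Ccne1 exceeded the limit on 3 arrays and Pbk on 4, while Bub1b and Kif2c exceeded it on 0. Bub1 exceeded it on 7 arrays, Plk1 on 9 and Ccna2 on 18. Of the 13 members with several probe sets, the one with the highest mean was used.

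Whether a member varied among the 15 groups at all was asked with limma's F-test, adjusted over all 14217 genes with 0.05 as the limit. In this test 17 of the 45 genes passed, where 3.42% of all genes did. They were mostly genes of late cycle: 6 of 9 S/G2 and mitotic cyclins and kinases passed (Cdk1, Ccnb2, Ccna2, Ccnb1, Pbk and Plk1), 3 of 5 genes of the anaphase-promoting complex and spindle checkpoint (Cdca3, Bub1 and Cdc20), 2 of 5 passenger, kinetochore and chromatin genes (Mki67 and Cenpf) and 3 of 9 spindle and cytokinesis genes (Prc1, Nusap1 and Ect2). Among the other roles, 1 of 6 precursor and fork genes passed (Top2a), 2 of 7 licensing genes (Mcm4 and Mcm5) and 0 of 4 G1 and G1/S genes. Roles are those assigned in the list, where Top2a stands with the fork genes and Cdca3 with the anaphase-promoting complex. Top2a, the topoisomerase that untangles replicated chromosomes, had the smallest adjusted p of the list (1.45e-06), followed by Cdk1 (8.71e-06), the kinase that drives entry into mitosis. Mki67, which encodes the Ki-67 antigen of cycling cells, had an adjusted p of 9.47e-05, and Cdca3, a trigger of mitotic entry, of 0.00011. Without scaling 9 members passed, and without the sex term 11, for which the shares of all genes are not given.

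**Figure D1:**
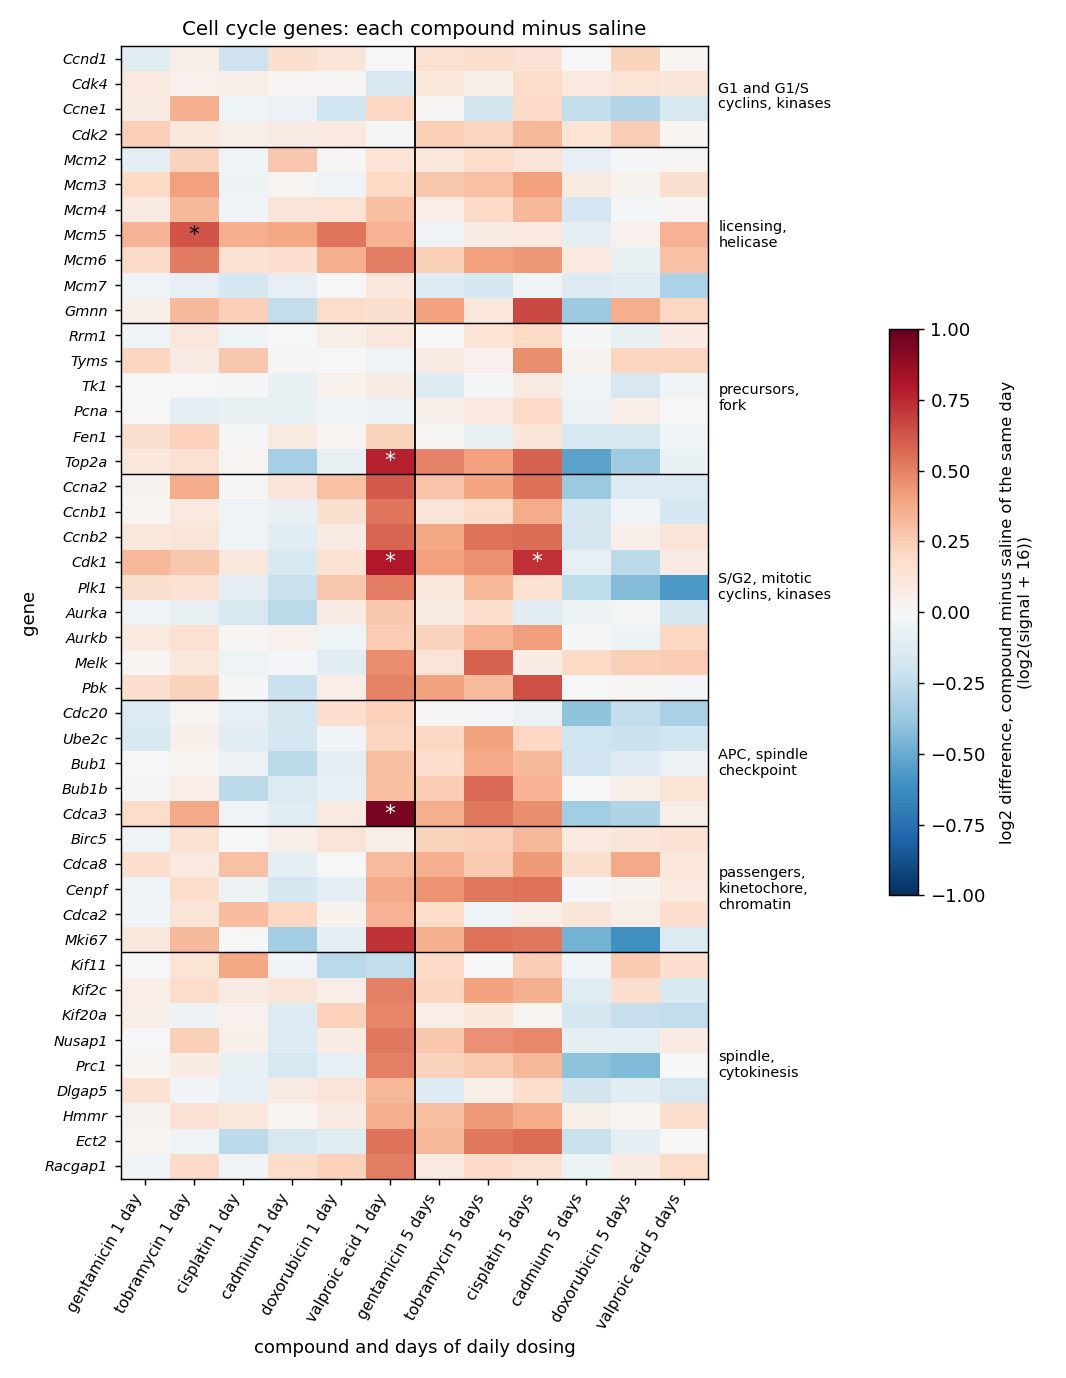
Log2 difference of each of the 45 genes (rows, by role) for each compound minus saline of the same day (columns); red is higher and blue lower than saline, and an asterisk marks an adjusted p under 0.05. The valproic acid column at 1 day and the cisplatin column at 5 days are mostly red, with 40 and 42 of 45 genes higher. So are gentamicin at 5 days (41) and tobramycin at 1 day and 5 days (39 each), and 5 cells carry an asterisk.

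After 1 day of valproic acid, an antiepileptic drug that also inhibits histone deacetylases, 3 of the 45 genes rose and 0 fell at the adjusted limit, where 0.0703% of all 14217 genes rose and 0.169% passed in either direction. The 3 were Top2a, Cdk1 and Cdca3. Without rat 7M56 only 1 passed, and without the saline rat 1F104 the count was 5. In all, 40 of the 45 genes were higher than in saline rats, with a median log2 difference of 0.31 against 0.013 over all genes. At an unadjusted p under 0.05, 23 members were higher and 0 lower, where 4.95% of all genes were higher. Neither count is adjusted for the number of genes.

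Top2a (probe set 1388650_at, chromosome 10, 84441954 to 84473093 on GRCr8) had a lowest, median and highest signal of 67.8, 87.5 and 127 in the 6 valproic acid rats, against 24.7, 45.5 and 59.2 in the 7 saline rats. Every valproic acid rat lay above every saline rat. Its mean was 92.6 ± 20.1 (SD, n = 6) in valproic acid rats and 47.4 ± 12.5 (SD, n = 7) in saline rats, and the log2 difference was 0.77 (SE 0.18, 95% interval 0.41 to 1.13, adjusted p = 0.0452). The second probe set of Top2a gave 0.74 (adjusted p = 0.128 when every probe set was tested). This call is the weakest of the 3: it held in 7 of 13 other settings (adjusted p between 0.0017 and 0.855) and in 3 of 13 fits that each left out 1 rat, where the adjusted p reached 0.243.

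Cdk1 (1367776_at, chromosome 20, 19265252 to 19280456) had 51.2, 62.3 and 99.7 in valproic acid rats, against 19.8, 32.02 and 44.2 in saline rats. The groups did not overlap here either. The mean was 69.0 ± 18.1 (SD, n = 6) in valproic acid rats and 32.5 ± 10.1 (SD, n = 7) in saline rats, a log2 difference of 0.80 (SE 0.16, 95% interval 0.47 to 1.12, adjusted p = 0.0077). Fitted on these 2 groups alone, the adjusted p was 0.0962, and without rat 7M56 it was 0.0629; over 13 other settings it lay between 3.02e-04 and 0.855.

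Cdca3 (1374449_at, chromosome 4, 159321203 to 159325072), which helps to remove the mitosis inhibitor Wee1, had 72.9, 88.6 and 118.6 in valproic acid rats, against 19.9, 40.5 and 60.7 in saline rats. All 6 valproic acid rats were above all 7 saline rats. The mean was 89.8 ± 15.96 (SD, n = 6) in valproic acid rats and 38.9 ± 13.99 (SD, n = 7) in saline rats, a log2 difference of 0.95 (SE 0.19, 95% interval 0.57 to 1.34, adjusted p = 0.0077). It passed in 12 of 13 other settings, also with the 2 groups fitted alone (adjusted p = 0.0250), and in all 13 fits that left out 1 rat. The setting in which it did not pass was the one without scaling (adjusted p = 0.855), where 0 members passed, the median of all genes was -0.14 and 34 of the 45 genes were higher.

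The mitotic roles had the larger medians. The S/G2 and mitotic cyclins and kinases had a median log2 difference of 0.51 (9 of 9 higher), the spindle and cytokinesis genes 0.50 (8 of 9), the passenger, kinetochore and chromatin genes 0.34 (5 of 5) and the anaphase and checkpoint genes 0.30 (5 of 5). The licensing genes followed with 0.20 (7 of 7 higher), the precursor and fork genes with 0.10 (4 of 6) and the G1 and G1/S genes with -0.0050 (2 of 4). Differences between roles were not tested.

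Mki67 had 63.2, 78.8 and 116 in valproic acid rats, against 26.5, 43.9 and 52.8 in saline rats. Prc1, which bundles the microtubules of the central spindle, had 70.5, 95.1 and 106.2 in valproic acid rats, against 36.1, 61.3 and 69.8 in saline rats. In both genes the groups did not overlap, yet neither passed over all genes (log2 0.73, adjusted p = 0.192, and log2 0.50, adjusted p = 0.206). Nusap1, a spindle-associated protein, had 51.2, 73.8 and 98.5 in valproic acid rats, against 33.8, 46.6 and 68.7 in saline rats (log2 0.53, adjusted p = 0.0951). Ccnb2, cyclin B2, had 54.3, 67.6 and 75.4 in valproic acid rats, against 24.8, 35.5 and 55.3 in saline rats (log2 0.58, adjusted p = 0.122). Ect2, the exchange factor that starts the cleavage furrow, had 42.7, 84.4 and 129.45 in valproic acid rats, against 31.2, 39.6 and 74.1 in saline rats (log2 0.55, adjusted p = 0.293). With the sexes pooled, the upper saline rats overlapped the lower valproic acid rats in these 3 genes. Control females reached at most 39.6 in Ect2 and 54.1 in Ccnb2, under the lowest valproic acid rat of each gene. In Nusap1 they reached 54.4, above the lowest valproic acid rat. Ccnb1, cyclin B1 (log2 0.53, adjusted p = 0.122) and Racgap1, the partner of Ect2 at the furrow (log2 0.51, adjusted p = 0.122), were of like size, but the second probe set of Racgap1 gave 0.07.

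**Figure D2:**
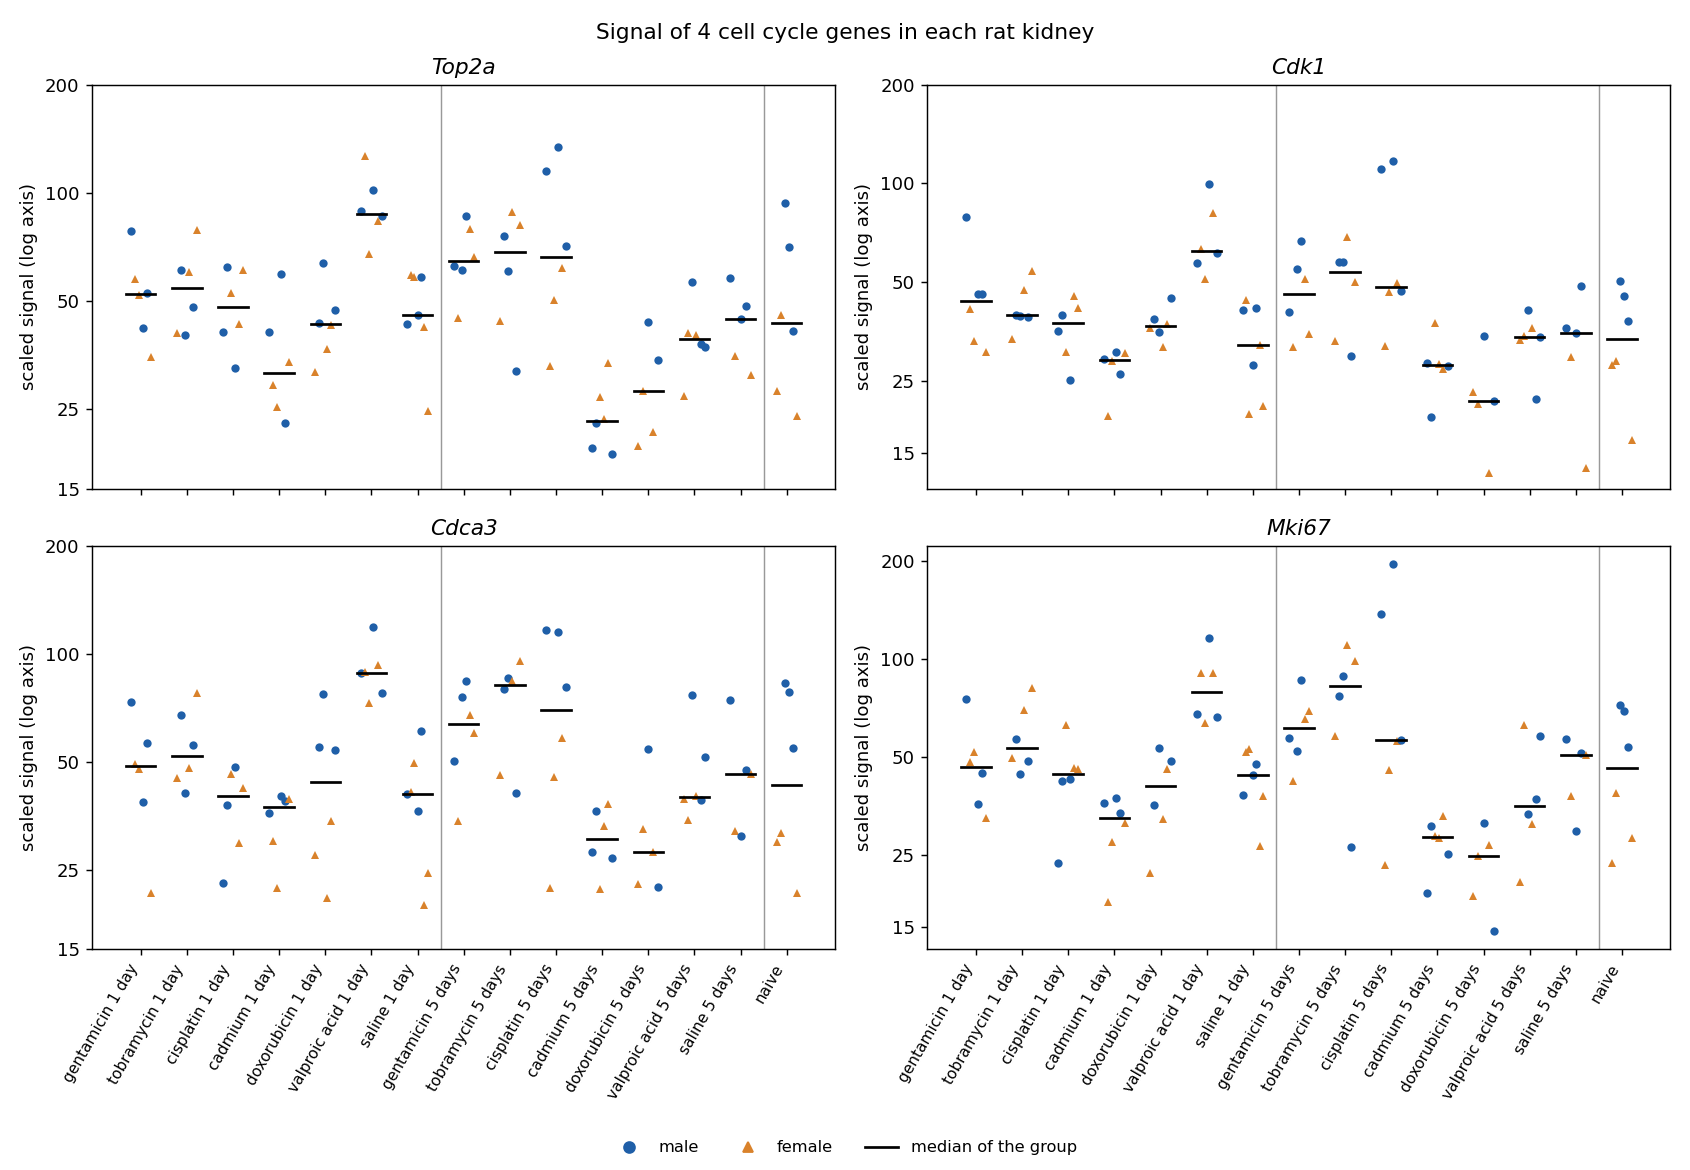
Scaled signal (log axis) of Top2a, Cdk1, Cdca3 and Mki67 in each of the 89 rats by group, with circles for males, triangles for females and bars for group medians; vertical lines part 1 day, 5 days and naive rats. In all 4 genes the valproic acid rats at 1 day lie above the saline rats at 1 day, and after 5 days of cisplatin 2 males stand highest.

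Markers of other cells and of RNA quality were set beside these values. The summed signal of 12 lymphocyte markers ran from 277 to 379 (median 334) in valproic acid rats and from 332 to 460 (median 393) in saline rats, with 1 of the 12 higher, and 7 of the 12, Cd3e among them, were under the low-value limit in every valproic acid rat. The summed signal of 18 macrophage and granulocyte markers had a median of 5642 in valproic acid rats and 6337 in saline rats, with 3 of the 18 higher. Of 11 endothelium markers 10 were higher (median log2 difference 0.088), and of 12 kidney tubule and podocyte markers 11 were (0.055). Of 11 fibroblast and matrix genes 7 were higher (0.0089). No marker of these lists passed, and their part in the members' values was not tested. The log2 ratio of 3′ to 5′ GAPDH probe sets, a measure of RNA quality, ran from 0.21 to 1.24 in valproic acid rats and from 0.29 to 0.48 in saline rats, and with it as a covariate the same 3 genes passed. Cdkn1a, the p21 inhibitor of cyclin-dependent kinases, had a log2 difference of -0.081 (adjusted p = 0.953), and Havcr1, the kidney injury marker Kim-1, averaged 17.9 ± 4.96 (SD, n = 6) in valproic acid rats and 50.03 ± 75.5 (SD, n = 7) in saline rats.

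After 5 days of valproic acid 0 of the 45 genes passed, where 0.0633% of all genes did. The median log2 difference was 0.018, with 27 genes higher. At an unadjusted p under 0.05, 1 member was higher and 3 were lower, where 3.14% and 3.68% of all genes were. Top2a had 27.2, 39.1 and 56.3 in the 6 valproic acid rats at 5 days, against 35.2, 31.1, 57.9, 44.6 and 48.5 in the 5 saline rats (1F105, 1F106, 1M4, 1M5 and 1M6, in this order throughout). Cdk1 had 21.9, 34.1 and 41.1 in the valproic acid rats, against 29.5, 13.49, 36.2, 34.8 and 48.6 in the saline rats. The groups overlapped throughout. The change of the effect between the days (effect at 5 days minus effect at 1 day) had a median of -0.29 over the 45 genes, with 15 lower at an unadjusted p under 0.05, where 2.89% of all genes were. None passed the limit over all genes (limma, 0% of all genes passed), the smallest adjusted p being 0.911. Plk1, Polo-like kinase, had -1.08 (SE 0.32) and Cdca3 -0.89 (SE 0.29). Plk1 is dim, with a signal above the low-value limit on 9 of 89 arrays.

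After 5 days of cisplatin, a platinum drug that crosslinks DNA, Cdk1 rose and 0 members fell at the adjusted limit, where 0.338% of all genes passed. In all, 42 of the 45 genes were higher, with a median log2 difference of 0.33 against 0.0065 over all genes, and 24 were higher at an unadjusted p under 0.05, where 6.25% of all genes were. The values rest largely on 2 males, 3M22 and 3M24. Relative to control rats of the same sex, these were the highest 2 of the 6 cisplatin rats in 30 of the 45 genes. Without them (an alternative added after the data were seen), 0 members passed, the median was 0.099 and 34 genes were higher. At an unadjusted p under 0.05, 4 were then higher and 1 lower. The shares of all genes in that fit are not given. Because the 2 rats were chosen for high values in these genes, leaving them out was bound to lower the median. It also made the group smaller, here and in the comparison with doxorubicin below.

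Cdk1 had 110 in 3M22, 46.99 in 3M23, 117 in 3M24, and 46.5, 49.7 and 31.99 in the females 3F122, 3F123 and 3F124, against 29.5, 13.49, 36.2, 34.8 and 48.6 in the 5 saline rats. The males 3M22 and 3M24 lay far above all saline rats, while 3 of the 5 saline rats lay above the lowest cisplatin rat. The mean was 67.1 ± 36.7 (SD, n = 6) in cisplatin rats and 32.5 ± 12.7 (SD, n = 5) in saline rats, a log2 difference of 0.73 (SE 0.18, 95% interval 0.38 to 1.08, adjusted p = 0.0298, higher than the saline mean of the same sex in 6 of 6 rats). Without 3M22 and 3M24 it was 0.39 (adjusted p = 0.534), and with the 2 groups fitted alone 0.78 (adjusted p = 0.409). Leaving out 3M22, 3M24 or the saline rats 1M4, 1M5 or 1F106 singly also ended the call (adjusted p up to 0.274). Over 14 other settings the adjusted p lay between 0.0013 and 0.534. The log2 ratio of 3′ to 5′ GAPDH was 1.58 in 1F106, the highest of the 89 arrays, and 0.26 to 0.59 in the other saline rats. This rat is part of every comparison with saline at 5 days. With the ratio as a covariate Cdk1 did not pass.

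Ect2 had 136.8 in 3M22, 63.6 in 3M23, 215 in 3M24, and 24.8, 45.2 and 25.4 in the 3 females, against 30.4, 27.5, 63.4, 44.7 and 49.8 in saline rats (log2 0.56, adjusted p = 0.229). Nusap1 had 81.99, 61.3 and 98.4 in the males, and 51.1, 62.0 and 38.4 in the females, against 48.5, 33.5, 40.97, 34.7 and 49.01 in saline rats (log2 0.48, adjusted p = 0.148). The other 4 rats lay within or near the saline range in Ect2 and mostly above it in Nusap1. In Tyms, thymidylate synthase, the groups did not overlap: it averaged 58.8 ± 13.99 (SD, n = 6) in cisplatin rats and 37.1 ± 3.96 (SD, n = 5) in saline rats (log2 0.47, adjusted p = 0.0954). Gmnn, geminin, which blocks a second round of origin licensing, had a log2 difference of 0.66 (adjusted p = 0.202) and Cenpf, a kinetochore protein, of 0.55 (adjusted p = 0.103). Pcna, the sliding clamp of the polymerase, had 1068, 852 and 1299 in the males, and 828.7, 989 and 925 in the females, against 814, 695, 900, 1064 and 879 in saline rats. Its log2 difference was 0.19 (SE 0.085, adjusted p = 0.380).

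The injury gene Havcr1 and p53 targets are set beside these values. Havcr1 had 1170 in 3M22, 75.8 in 3M23, 3466 in 3M24 and 145, 202 and 73.5 in the females 3F122, 3F123 and 3F124. Cdkn1a had 296, 117 and 544 in the males, and 181.7, 181.3 and 139.2 in the females. Both genes were highest in the 2 males in which the mitotic genes were highest. Over the group, Havcr1 rose by a log2 difference of 2.88 (adjusted p = 0.0090), Cdkn1a by 1.25 (adjusted p = 0.0016) and Ccng1, the p53 target cyclin G1, by 1.38 (adjusted p = 2.79e-14). The summed signal of 12 lymphocyte markers was 385 in 3M22 and 539 in 3M24, with a range of 349 to 456 in the other 4 cisplatin rats and of 304 to 498 in saline rats. The part of injury or infiltrating cells in the cisplatin result was not tested.

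The effect of cisplatin at 5 days in males minus that in females had a median of 0.42 over the 45 genes. Of these 39 were higher, where 55.9% of all genes were, and 9 were so at an unadjusted p under 0.05, where 5.59% of all genes were. None passed the limit over all genes (0.00703% of all genes passed), with the smallest adjusted p at 0.307 for Mcm3. The 3 cisplatin males include 3M22 and 3M24, and the saline females were 2 rats, 1F106 among them. The effect at 5 days minus that at 1 day had a median of 0.27, with 13 higher at an unadjusted p under 0.05, where 5.58% of all genes were, and 0 past the limit (0.00703% of all genes passed). Cisplatin for 1 day had 0 members past the limit in limma (0% of all genes passed), 3 higher at an unadjusted p under 0.05 (2.11% of all genes were), 18 higher than in saline rats at all, and a median of -0.029.

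**Figure D3:**
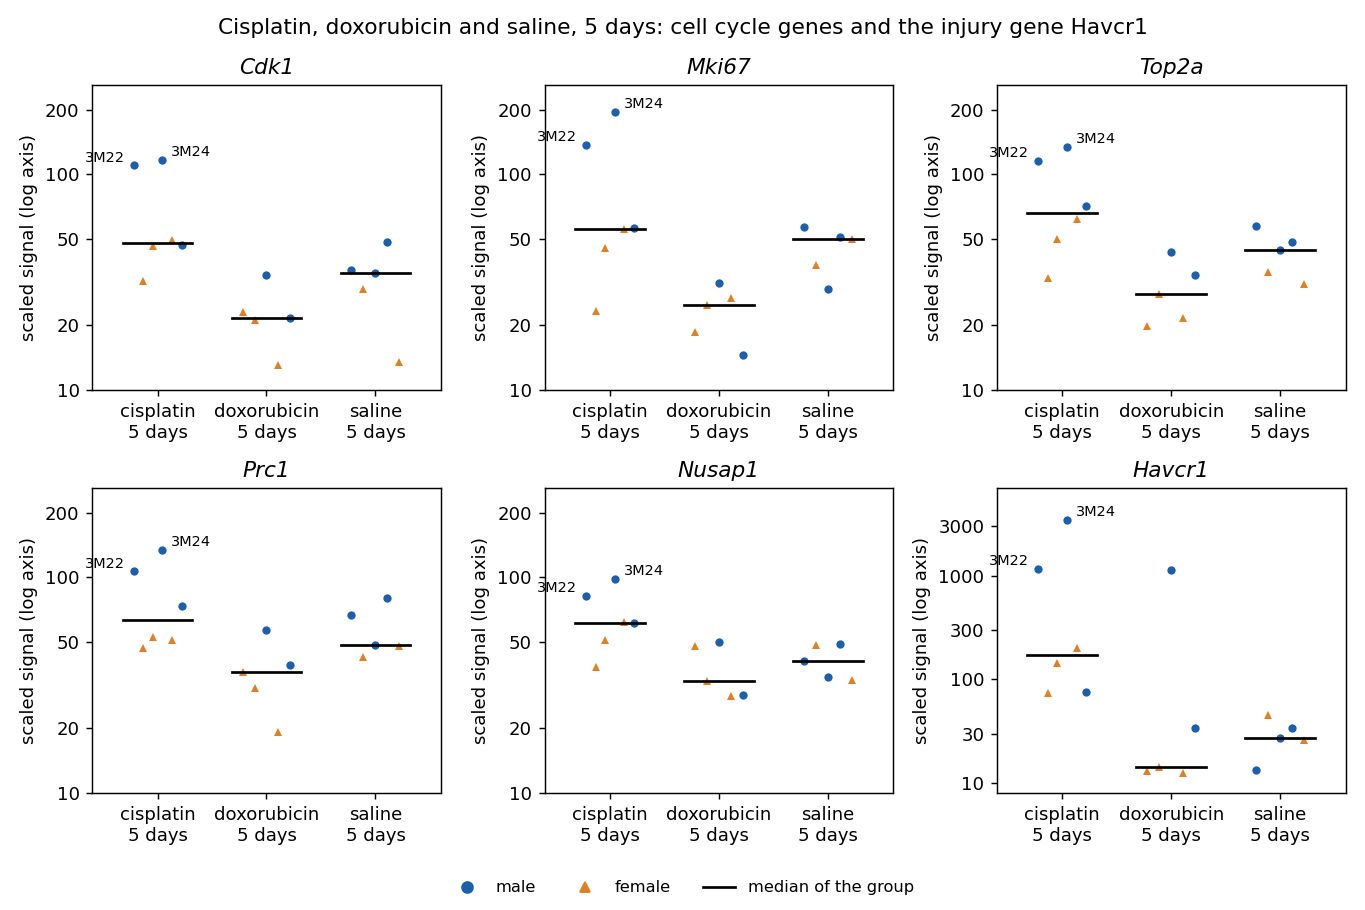
Scaled signal (log axis) of 5 cell cycle genes and of the injury gene Havcr1 in each rat after 5 days of cisplatin, doxorubicin or saline, with circles for males, triangles for females and bars for medians. The males 3M22 and 3M24 are highest in all 6 panels, and 1 doxorubicin male also has a high Havcr1.

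Cisplatin and doxorubicin, an anthracycline that poisons topoisomerase II, are both DNA-damaging drugs, and their rats at 5 days differed in 5 of the 45 genes, all higher after cisplatin, where 0.528% of all genes differed. In all, 41 genes were higher after cisplatin, with a median log2 difference of 0.30. The doxorubicin values (rats 6F149, 6F150, 6F151, 6M49 and 6M50, in this order) are set beside the cisplatin values (3M22, 3M23, 3M24, 3F122, 3F123 and 3F124).

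Cdk1, with the cisplatin values above, had 13.1, 21.2, 23.1, 34.3 and 21.6 in doxorubicin rats, and 1 doxorubicin rat lay above the lowest cisplatin rat. The log2 difference of cisplatin minus doxorubicin was 1.00 (SE 0.18, 95% interval 0.65 to 1.35, adjusted p = 5.82e-04). Mki67 had 137.2, 56.3, 196, 45.5, 55.8 and 23.1 in cisplatin rats, against 26.8, 24.7, 18.7, 31.3 and 14.6 in doxorubicin rats (log2 1.14, SE 0.23, 95% interval 0.67 to 1.60, adjusted p = 0.0047). All 5 doxorubicin rats were under the low-value limit, and against that limit Mki67 was at least 2.08-fold higher after cisplatin. The cisplatin female 3F124 lay among the doxorubicin rats, and the other 5 lay above them. Top2a had 115.5, 71.0, 135, 50.2, 61.9 and 32.96 in cisplatin rats, against 21.6, 28.0, 19.8, 43.7 and 34.2 in doxorubicin rats (log2 0.94, SE 0.20, 95% interval 0.55 to 1.34, adjusted p = 0.0055). Prc1 had 107, 73.9, 134, 53.1, 51.4 and 47.2 in cisplatin rats, against 19.1, 30.7, 36.5, 56.8 and 39.1 in doxorubicin rats (log2 0.77, SE 0.16, 95% interval 0.44 to 1.10, adjusted p = 0.0063). In Top2a 2 doxorubicin rats and in Prc1 1 lay above the lowest cisplatin rat. Nusap1, with the cisplatin values above, had 28.3, 33.01, 48.2, 50.4 and 28.4 in doxorubicin rats (log2 0.58, SE 0.15, 95% interval 0.28 to 0.87, adjusted p = 0.0451).

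Without 3M22 and 3M24, 0 of the 5 passed, with log2 differences of 0.66 for Cdk1 (adjusted p = 0.164), 0.63 for Mki67 (0.634), 0.64 for Top2a (0.488), 0.53 for Prc1 (0.485) and 0.38 for Nusap1 (0.808). With the 2 groups fitted alone 0 passed as well (adjusted p between 0.151 for Top2a and 0.430 for Nusap1), and without scaling 2 did (Cdk1 and Mki67). Leaving out 3M24 alone left 1 member past the limit, and leaving out the female 3F124 alone gave 11. The shares of all genes in these fits are not given, so a change over all genes cannot be told apart. At 1 day 0 members differed (0.0422% of all genes did), 4 did so at an unadjusted p under 0.05 (11.3% of all genes did), and the median was -0.056.

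Against saline, doxorubicin at 5 days had 0 members past the limit, where 0.267% of all genes passed. With 20 of 45 genes higher the median was -0.023, and 2 were lower at an unadjusted p under 0.05 (4.73% of all genes were): Mki67 had a log2 difference of -0.61 (adjusted p = 0.366) and Prc1 of -0.44 (adjusted p = 0.350). All 5 doxorubicin rats had less Mki67 than the saline mean of their sex, although the ranges met, since saline rats had 37.9, 50.4, 56.8, 29.6 and 51.3. Some blood-cell genes fell in the same kidneys. Of 9 red cell and erythroid precursor genes 3 fell (Hbb, Alas2 and Hba-a3) and 3 were higher. Their summed signal, 1268 to 1958 in doxorubicin rats and 6657 to 8465 in saline rats, was carried mostly by the haemoglobin gene Hbb, which averaged 66.3 in doxorubicin rats and 4793 in saline rats. Of 18 macrophage and granulocyte markers 2 fell (Csf1r and Cd74) and 3 were higher, and the median sum was 4574 in doxorubicin rats and 6227 in saline rats. The part of these cells in the doxorubicin values was not tested. Doxorubicin for 1 day had 0 members past the limit (0.0422% of all genes passed) and 2 higher at an unadjusted p under 0.05 (5.09% of all genes were), and 29 were higher with a median of 0.056, which was -0.21 without scaling, where the median of all genes was -0.26. For the doxorubicin effect at 5 days minus that at 1 day, 0 members passed, where 0.0352% of all genes did, and 3 were lower at an unadjusted p under 0.05 (3.62% of all genes were).

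Tobramycin and gentamicin are related aminoglycoside antibiotics that proximal tubule cells take up. After 1 day of tobramycin 1 member rose, Mcm5, and 0 fell, where 0.359% of all genes passed. Mcm5, a subunit of the replicative helicase (1376055_at, chromosome 19, 13488813 to 13510131), had 35.0, 49.02 and 55.5 in the 6 tobramycin rats, against 13.1, 26.2 and 31.1 in the 7 saline rats. The groups did not overlap, and all 7 saline rats lay under the low-value limit. Its mean was 46.9 ± 8.28 (SD, n = 6) in tobramycin rats and 24.7 ± 5.68 (SD, n = 7) in saline rats, a log2 difference of 0.63 (SE 0.14, 95% interval 0.35 to 0.91, adjusted p = 0.0165). Set against that limit, it was at least 1.44-fold higher in tobramycin rats. The saline rats at 1 day had the lowest of the 15 group medians of Mcm5, with 42.3 in saline rats at 5 days and 40.8 in naive rats, and tobramycin minus naive gave 0.092 (adjusted p = 0.981). With the groups fitted alone the adjusted p was 0.0575, and it exceeded 0.05 in 5 of 13 other settings and without 4F128, 4F129, 4F130 or the saline rat 1M3 (0.104 at most).

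Other licensing genes were higher after 1 day of tobramycin without passing. Mcm3 had a log2 difference of 0.41 (adjusted p = 0.181), Mcm6 of 0.52 (adjusted p = 0.284) and Mcm4 of 0.32 (adjusted p = 0.356). Over the list 39 of the 45 genes were higher, with a median of 0.14, and 6 were so at an unadjusted p under 0.05, where 4% of all genes were. Without scaling 12 of the 45 were higher, with a median of -0.10 where the median of all genes was -0.27. The members' median minus that of all genes was 0.17 without scaling and 0.13 with it. Mcm5 was also above saline at 1 day after doxorubicin (log2 0.53, adjusted p = 0.259) and cisplatin (log2 0.37, adjusted p = 0.996), which share these saline rats. All 12 lymphocyte markers were higher, with sums of 404 to 579 in tobramycin rats and 332 to 460 in saline rats, and so were 16 of 18 macrophage and granulocyte markers, with median sums of 7376 in tobramycin rats and 6337 in saline rats. None of these markers passed, and their part was not tested.

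After 5 days 0 members passed with either aminoglycoside, where 0% of all genes passed with tobramycin and 0.0141% with gentamicin. With tobramycin 39 of the 45 genes were higher, with a median of 0.24 (0.11 without scaling), and 18 were so at an unadjusted p under 0.05, where 4.11% of all genes were. Cenpf had 0.52, Ccnb2 0.54 and Nusap1 0.46 on the log2 scale (adjusted p = 0.468 each). With gentamicin 41 genes were higher, with a median of 0.19, and 7 were so at an unadjusted p under 0.05, where 5.11% of all genes were. Mki67 had 26.5, 82.6 and 110 in tobramycin rats and 42.1, 61.1 and 85.9 in gentamicin rats, against 37.9, 50.4, 56.8, 29.6 and 51.3 in saline rats. The tobramycin group held both the lowest and the highest of these rats. Markers of immune cells were also higher. Of 12 lymphocyte markers 11 were higher with tobramycin and 12 with gentamicin, with summed signals of 308 to 797 (median 575) in tobramycin rats and 365 to 710 (median 543) in gentamicin rats, against 304 to 498 (median 413) in saline rats. Of 18 macrophage and granulocyte markers 14 were higher with tobramycin and 15 with gentamicin, with median sums of 7089 in tobramycin rats and 7020 in gentamicin rats, against 6227 in saline rats. No marker of either list passed, and their part in the members' values was not tested. Gentamicin for 1 day had 0 members past the limit (0.0914% of all genes passed), 2 higher at an unadjusted p under 0.05 (2.06% of all genes were) and a median of 0.036.

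Set against each other at matched days, gentamicin and tobramycin differed in 0 of the 45 genes at 1 day and at 5 days, where 0% of all genes differed at either time. At 1 day Top2a had a difference of gentamicin minus tobramycin of -0.040 (95% interval -0.42 to 0.34), Cdk1 of 0.059 (-0.28 to 0.39) and Mki67 of -0.22 (-0.67 to 0.22). At 5 days Top2a had 0.085 (-0.29 to 0.46), Cdk1 -0.054 (-0.39 to 0.28) and Mki67 -0.18 (-0.63 to 0.26). At an unadjusted p under 0.05, 2 members were lower in gentamicin rats at 1 day, Mcm2 among them (-0.33, 95% interval -0.58 to -0.066, adjusted p = 0.610), and 1 at 5 days, Melk (-0.46, 95% interval -0.86 to -0.063, adjusted p = 0.939), where 3.19% and 2.45% of all genes were.

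Cadmium, a metal that accumulates in proximal tubules, was the compound whose members leaned lowest. After 5 days 0 members passed (0.0492% of all genes did, and 0.0211% of all genes rose), and 13 of the 45 were higher, with a median of -0.085. At an unadjusted p under 0.05, 4 were lower, where 2.35% of all genes were: Top2a (log2 -0.54, adjusted p = 0.537), Mki67 (-0.47, adjusted p = 0.828), Prc1 (-0.41, adjusted p = 0.625) and Cdc20, the activator of the anaphase-promoting complex (-0.40, adjusted p = 0.397). Top2a had 18.7, 23.2 and 33.6 in cadmium rats, against 35.2, 31.1, 57.9, 44.6 and 48.5 in saline rats. A single cadmium rat reached into the saline range. Against all control rats pooled, Top2a passed. Cadmium for 1 day had 0 members past the limit (0.0422% of all genes passed), 2 higher at an unadjusted p under 0.05 (2.36% of all genes were), 18 higher in all and a median of -0.069.

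**Figure D4:**
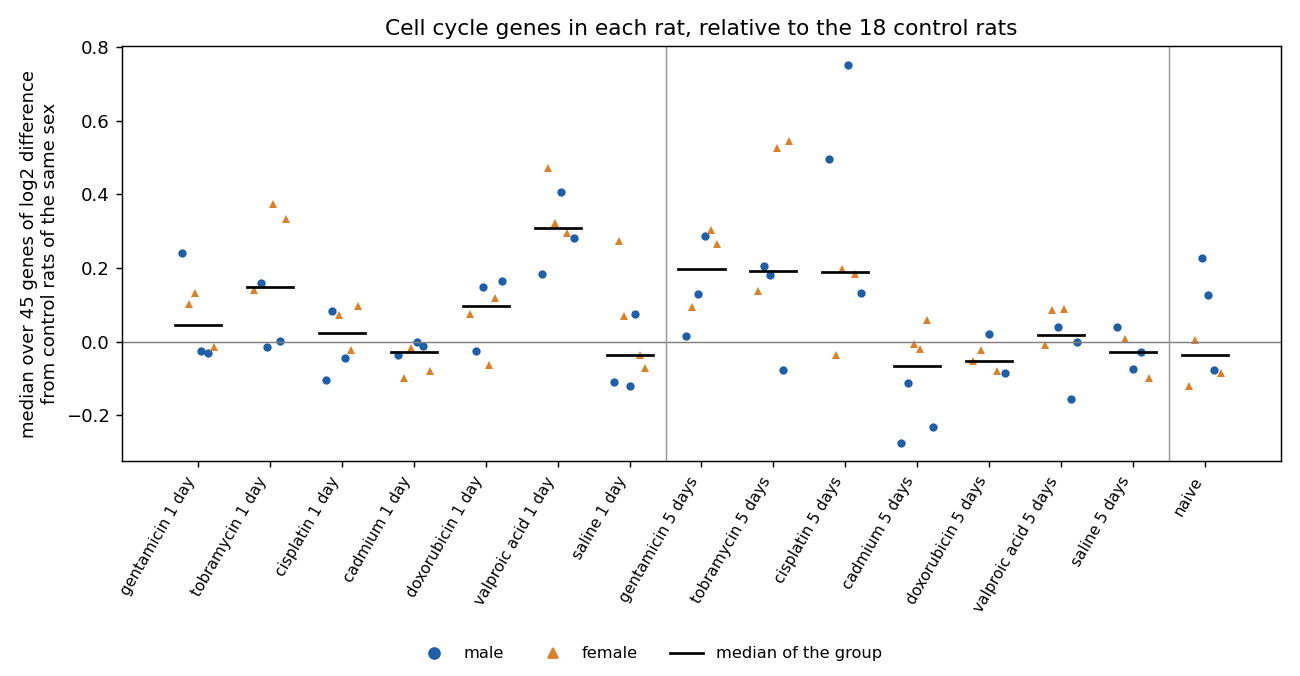
Median over the 45 genes of each rat's log2 difference from control rats of the same sex, by group, with circles for males, triangles for females and bars for group medians. All 6 valproic acid rats at 1 day lie between 0.18 and 0.47, while the 6 cisplatin rats at 5 days spread from -0.035 to 0.75.

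Rat by rat, the median of the 45 genes relative to control rats of the same sex gave the spread within a group. It was 0.18, 0.31 and 0.47 (lowest, median and highest) after 1 day of valproic acid, against -0.12, -0.036 and 0.27 in saline rats at 1 day. After 5 days it was -0.076, 0.19 and 0.54 with tobramycin, 0.015, 0.20 and 0.30 with gentamicin, -0.035, 0.19 and 0.75 with cisplatin, and -0.27, -0.066 and 0.058 with cadmium, against -0.098, -0.029 and 0.041 in saline rats. The naive rats had -0.12, -0.036 and 0.23. All rats lay above 0 after 1 day of valproic acid and after 5 days of gentamicin, while the cisplatin and tobramycin groups at 5 days spread widest. No p is given for this median.

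Of the abundant members Mcm4 passed the F-test (above), and Ccnd1, Mcm2 and Pcna did not. Ccnd1, cyclin D1, had group medians of at most 1760, after 1 day of cadmium, and at least 1068, in naive rats. Its saline rats at 1 day had 1287, 1517 and 2012 and its naive rats 981, 1068 and 1444, a log2 difference of saline minus naive of 0.46 (SE 0.14, adjusted p = 0.588). Those groups overlapped. Mcm2, a helicase subunit, had group medians between 89.7 after 1 day of gentamicin and 128.03 after 5 days of tobramycin, and Pcna between 843 after 1 day of tobramycin and 957 after 5 days of cisplatin. Neighbouring groups in these orders lay within each other's spread.

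The controls among themselves differed in 0 members. Saline at 1 day against naive, saline at 5 days against naive and saline at 5 days against saline at 1 day each had 0 of the 45 genes past the limit, where 0%, 0.0281% and 0% of all genes passed. Medians were 0.012, -0.047 and -0.052, and 2, 2 and 1 members passed at an unadjusted p under 0.05, where 6.47%, 8.55% and 7.01% of all genes did. The member with the smallest unadjusted p was Mcm5, which averaged 24.7 ± 5.68 (SD, n = 7) in saline rats at 1 day and 43.4 ± 11.5 (SD, n = 6) in naive rats (log2 -0.54, adjusted p = 0.559), with no overlap.

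The largest difference of a member in any comparison with saline was 0.95 on the log2 scale (Cdca3, above). Among the 18 control rats, 9 of the 45 genes differed between 9 males and 9 females, 8 higher in males and 1 lower, where 18.4% of all genes differed. By direction, 17.8% of the members were higher in males, where 7.72% of all genes were, and 2.22% were lower, where 10.7% of all genes were. Melk, a kinase of the mitotic and stem cell program (1389756_at, chromosome 5, 63336151 to 63396254), had 237, 342 and 428 in control males, against 5.70, 12.3 and 18.6 in control females, in which it exceeded the low-value limit in 0 of 9 rats. Over all rats it had 227 to 682 in 44 males, against 4.25 to 37.8 in 45 females, without overlap. Since every control female was under the limit, the difference is given as a bound: Melk was at least 10.1-fold higher in control males (adjusted p = 3.76e-15). Kif11, the motor that pushes the spindle poles apart, had 366, 434 and 648 in control males, against 96.6, 188 and 289 in control females (log2 1.37, SE 0.17, 95% interval 1.02 to 1.72, adjusted p = 4.52e-06). Its second probe set gave 1.35, and over all rats the ranges were 329 to 773 in males and 67.7 to 325 in females. These 2 genes separated the sexes in every rat.

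Ect2 had 41.2, 62.9 and 74.7 in control males, against 17.2, 30.4 and 39.6 in control females (log2 0.76, SE 0.11, adjusted p = 6.65e-05), also without overlap. The other members higher in males overlapped: Ccnb2 (log2 0.51, adjusted p = 0.0126), Cdk1 (0.46, adjusted p = 0.0140), Cdca3 (0.54, adjusted p = 0.0225), Ccna2, cyclin A2 (adjusted p = 0.0169), and Cdca8, borealin (adjusted p = 0.02005, and 0.0524 without the saline rat 1F106). Ccna2 and Cdca8 exceeded the low-value limit in 1 of 9 control males each and in 0 of 9 control females, so no fold is given for them. Aurka, Aurora A kinase, was lower in males, with 18.9, 24.8 and 36.7 in control males, against 20.1, 43.9 and 59.2 in control females (log2 -0.42, adjusted p = 0.0366). The Aurka call held in 5 of 9 other settings (adjusted p between 0.0319 and 0.489) and in 8 of 18 fits that left out 1 rat. In tests of each compound's effect in males minus that in females, 0 members passed in any of the 12 comparisons, and between 1 and 9 (2.22% to 20%) did so at an unadjusted p under 0.05, where 2.55% to 14.9% of all genes did. The saline females at 5 days were 2 rats, 1F105 and 1F106, and 1F106 had the highest 3′ to 5′ GAPDH ratio of all arrays (log2 1.58). Leaving out either of them leaves 1 saline female, so no counts are given for those fits.

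**Figure D5:**
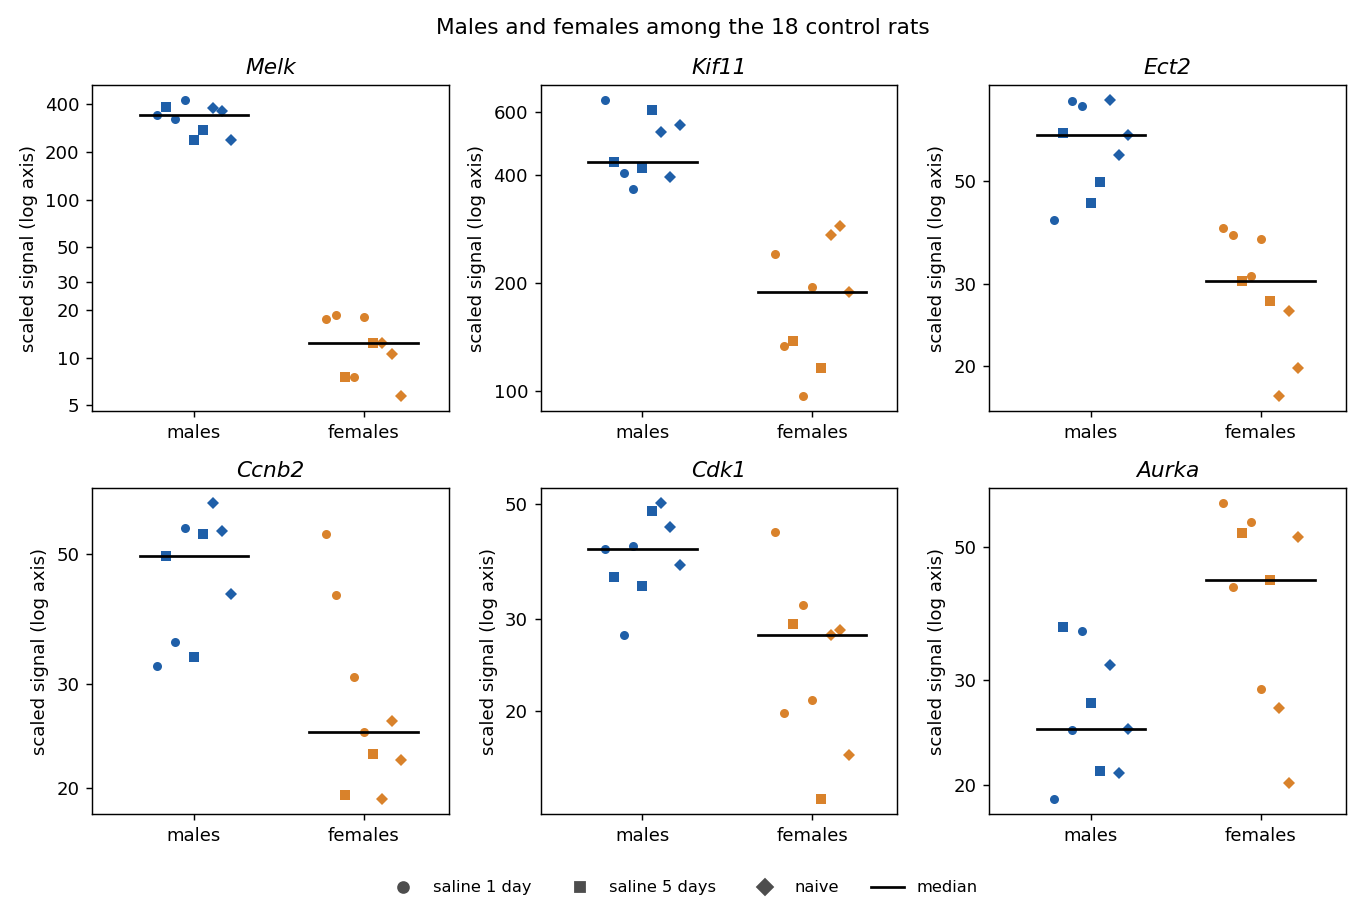
Scaled signal (log axis) of 6 members in the 18 control rats, males left and females right, with shapes for the control group and bars for medians. Melk and Kif11 in males lie wholly above the females, and Aurka lies lower in males.

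Other genes of the same pathway, a wider list with 96 measured genes, were counted in the same way. Valproic acid for 1 day had 79 of the 96 higher, with a median of 0.13, and 0 passed, where 24 of all 14217 genes did. Cisplatin for 5 days had 81 of 96 higher, with a median of 0.18. In 36 of them, the other mitosis genes, 35 were higher after 5 days of cisplatin, with a median of 0.30, where the members had 0.33. These 36 had medians of 0.26 after 5 days of tobramycin and 0.19 after 5 days of gentamicin, where the members had 0.24 and 0.19, and of 0.19 after 1 day of valproic acid, where the members had 0.31. Where 34 of all 14217 genes rose after 5 days of cisplatin, 4 of the 96 did. They were Cdkn1a, Cks1b, a subunit of cyclin-dependent kinases (log2 0.58, adjusted p = 0.0124), E2f8, a repressor of E2F targets (adjusted p = 0.0093), and Asf1b, a histone chaperone of replication (adjusted p = 0.0125). No fold is given for the last 2, which are dim: E2f8 averaged 24.9 in cisplatin rats, with 2 of 6 above the low-value limit, and 10.64 in saline rats, with 0 of 5 above it, and Asf1b averaged 15.7 in cisplatin rats and 5.19 in saline rats, under it in every rat of both groups. After 5 days of doxorubicin 2 of the 96 fell, where 29 of all 14217 genes did. Cdc25b, the phosphatase that activates Cdk1, averaged 33.9 ± 8.98 (SD, n = 5) in doxorubicin rats and 75.0 ± 20.6 (SD, n = 5) in saline rats (log2 -0.87, adjusted p = 0.0271). E2f2 averaged 101.96 ± 42.01 in doxorubicin rats and 166 ± 71.4 in saline rats (log2 -0.65, adjusted p = 0.0343). In the other 9 treatment comparisons 0 of the 96 passed. Among the 15 groups 13 of the 96 varied, where 486 of all 14217 genes did, with Cdkn1a, Cdkn3 and Spag5 among the 13.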

How the data were processed

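The data are 89 single-colour Affymetrix expression arrays of rat kidney RNA. The authors deposited 1 linear intensity per probe set and array, a MAS5 signal per the submitters' processing notes, with no version stated. All 89 columns were matched to sample titles, and 0 value columns were left unused.

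Of 31099 probe sets, 57 control sets, 436 that carry several symbols and 9780 that carry no symbol were left out, and the highest-mean probe set of each gene was kept (14217 genes). Arrays were scaled to a common 2% trimmed mean because these differed by a ratio of 3.84, above a limit of 1.2. The low-value limit is the 40th percentile of the signal (32.1). Where every rat of a group lay under it, a fold is a bound, the geometric mean of the brighter group over this limit.

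Log2(signal + 16) was fitted with limma 3.58.1 in R 4.3.3 (package data.table, version 1.17.8) on all 89 arrays, with group and sex as terms and eBayes with trend and robust. Moderated tests are two-sided, each p was adjusted by Benjamini-Hochberg over all 14217 genes, and 0.05 is the limit. The test of males against females used the 18 control rats with group as the other term. Figures came from matplotlib 3.10.9 in Python 3.11.15 with pandas 2.3.3. The number of arrays limits the precision.

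The fit was tested on simulated data for 1 day of valproic acid minus saline, with 200 of 14217 genes changed. It recovered 70% of changes of 0.5 and 97% of changes of 1 on the log2 scale, with 7 false calls. The simulated noise was normal and independent between genes and rats, and in the real comparison 24 genes passed. These shares therefore do not give the recovery of the members in the real data. Alternatives were other pseudocounts, no scaling, quantile normalization, a low-value filter, the 2 groups alone, naive or pooled controls, the 5 arrays of doubtful text left out, 1F104 moved to saline at 5 days, the GAPDH ratio as a covariate, array weights, no sex term, every probe set tested and each rat left out.

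Members and lists were chosen with earlier results of these data known. Single-rat values are given for members past the limit in a comparison with saline, for the 8 members with the smallest F-test p, and for Top2a, Mki67, Cdk1, Ccnd1, Mcm2 and Pcna. Members given beyond that rule, such as Tyms, Melk and Kif11, were picked once values were known. Of other lists, at most the 5 genes with the smallest adjusted p are named, plus Cdkn1a, Ccng1 and Havcr1.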

Additional observations from a re-analysis of the deposited data

Results flagged for a closer look

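In 7 of 180 groups of rats, over 12 members, a single rat stood apart from the others of its group in the log2 signal. Chance alone flags about 1 in 20 groups. Top2a was 24.7 in the saline female 1F103 at 1 day, against 42.4 to 59.2 in the other 6 rats. Mcm5 was 13.1 in the saline male 1M3 at 1 day, with the others at 22.8 to 31.1. Both of these rats belong to the saline group that the 1-day comparisons rest on. Cdk1 was 21.9 in the valproic acid male 7M59 at 5 days, with the others at 33.3 to 41.1, and 19.5 in the cadmium female 5F138 at 1 day, with the others at 26.2 to 30.6. Ect2 was 63.95 in the male 7M58 after 5 days of valproic acid, against 30.97 to 39.5 in the other males and females. Sexes were pooled for these flags, and Ect2 differs by sex. The value of 7M58 lies within the range of control males (41.2 to 74.7), where control females had 17.2 to 39.6. Mcm2 was 82.5 in the tobramycin male 4M33 at 5 days, with the others at 120.9 to 138.05, and Pcna was 652 in the cadmium female 5F140 at 5 days, with the others at 813 to 890. Of 810 tests of a difference between days or sexes, 0 passed over all genes.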

How the results depend on the processing

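Of the counts of members past the limit, 6 changed by more than 1.5 times under a setting other than leaving out 1 rat, and 0 values named in the text changed sign while called. For valproic acid at 1 day the count of 3 became 0 without scaling, 1 with the 2 groups fitted alone, 8 against naive rats, 8 against pooled controls and 6 with array weights, and between 1 and 5 with 1 rat left out. For cisplatin at 5 days the count of 1 became 3 against naive rats and 5 against pooled controls. It became 0 without scaling, with the 2 groups alone, without the 5 arrays of doubtful text, with 1F104 moved, with the GAPDH covariate, with array weights, without the sex term and without 3M22 and 3M24, and it lay between 0 and 4 with 1 rat left out (4 without 3F124, 2 without 3F123). For tobramycin at 1 day the count of 1 became 0 without scaling, with the groups alone, against naive rats and without the 5 arrays of doubtful text, and lay between 0 and 3 with 1 rat left out (3 without 4M28). For cadmium at 5 days the count of 0 became 1 against pooled controls. For cisplatin minus doxorubicin at 5 days the count of 5 became 2 without scaling, 0 with the 2 groups alone and 0 without 3M22 and 3M24, and lay between 1 and 11 with 1 rat left out. Over the 15 groups the count of 17 became 9 without scaling and 11 without the sex term, and lay between 16 and 20 with 1 rat left out. For males minus females the count of 9 lay between 6 (without scaling) and 13 (quantile normalization) over 10 settings, and between 7 and 11 with 1 rat left out. For the male minus female difference of the effect at 5 days, no count is given without 1F105 or 1F106, since 1 saline female then remained. The shares of all genes past the limit under these settings or with 1 rat left out are not given here or above. A change in the members can therefore not be told from a change over all genes. Why the counts moved was not tested, and the estimate of the array weights stopped short of full convergence. Without scaling, the median of all genes shifted to -0.27 for tobramycin, -0.19 for cisplatin, -0.26 for doxorubicin and -0.14 for valproic acid at 1 day. At 5 days it shifted to 0.11 for gentamicin, -0.11 for tobramycin, 0.12 for cisplatin and -0.14 for cadmium, and to 0.20 for cisplatin minus doxorubicin. No paired analysis was possible because every rat contributed a single array and the animal codes pair no rats. Differences in members near the low-value limit of 32.1 are compressed by the pseudocount, and the 4 members above it on fewer than 5 arrays have little signal over background.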
